A study of Mus musculus with 10 samples.

Results

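Hsp90ab1 and Ppia, 2 protein folding genes, were followed across 10 whole blood arrays. They are 2 of the 15 reference genes that the array files identify by a RefSeq accession, and they were taken by probe name: CUST_6_PI419532418 (accession NM_008302.3) for Hsp90ab1 and CUST_10_PI419532418 (NM_008907.1) for Ppia. Each probe was printed in 20 spots on every array, among 60915 probes analysed. All mice were female C57BL/6 aged 3 months. The exposed group was 5 mice given 40 µg of multi-walled carbon nanotubes (MWCNT, nested tubes of rolled carbon sheets) by pharyngeal aspiration, a route that carries liquid from the back of the throat into the lung. The control group was 5 mice given the vehicle. Blood was taken 56 days later, and 1 single-colour Agilent array, with probes for messenger and long non-coding RNA, was run per mouse.

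Hsp90ab1 encodes HSP90 beta, the constitutively made cytosolic form of the HSP90 chaperone. HSP90 uses ATP and a set of co-chaperones to bring kinases, steroid receptors and other client proteins into an active shape. Ppia encodes cyclophilin A, an abundant cytosolic enzyme that turns the peptide bond before proline between its cis and trans forms, and is the protein that cyclosporin binds in T cells. Both transcripts are made in most cell types, and both genes serve as reference genes for normalization. Ppia has many processed copies in the genome, and its probe may share signal with them.

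The file headers placed the arrays in 2 scan runs. The first run held all 5 controls and MWCNT mice 1 to 3, and the second held MWCNT mice 4 and 5 and no control. The share of spots well above background was 42.2% to 48.0% on the arrays of the first run, against 55.5% and 58.6% on those of the second. Within the first run, controls 1 to 4 lay in slide column 1, and control 5 with MWCNT mice 1 to 3 lay in column 2, so slide column and group differed there through control 5 alone. All 200 spots of each gene were well above background and none was saturated. The local background around these spots was 30.4 to 36.4 intensity units on the first run and 24.4 to 26.6 on the second. Levels below are log2 intensities minus the 75th percentile of the detected probes on that array, and the level of one probe is not set against that of another. In whole blood, a change in the mix of cells and a change in RNA per cell cannot be told apart.

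The comparison of exposed with vehicle mice asked whether blood transcript levels differed at 56 days. Neither folding gene passed the test, and the mean difference in each had the opposite sign once the second scan run was left out. The relative level of Hsp90ab1 was 0.20, 0.39, 0.27, 0.099 and 0.0029 log2 units in controls 1 to 5. It was 0.24, 0.14, 0.086, 0.78 and 0.79 in MWCNT mice 1 to 5. MWCNT mice 4 and 5 were above every control, and MWCNT mice 1 to 3 lay inside the range of the controls. The controls averaged 0.19 ± 0.15 (SD, n = 5) and the MWCNT mice 0.41 ± 0.35 (SD, n = 5). The log2 difference was 0.21 (SE 0.20, 95% interval -0.22 to 0.64), a 1.16-fold difference with an interval of 0.861 to 1.56. The limma adjusted p was 0.807, and the exact permutation test over the 252 assignments of mice gave a 2-sided p of 0.294.

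The relative level of Ppia, on the same scale, was 2.48, 3.02, 3.23, 2.34 and 2.97 in controls 1 to 5. It was 3.15, 2.44, 2.97, 1.90 and 2.27 in MWCNT mice 1 to 5. Controls and MWCNT mice overlapped over most of their range, and again it was MWCNT mice 4 and 5 that lay outside the controls, this time below them. The controls averaged 2.81 ± 0.38 (SD, n = 5), against 2.55 ± 0.51 (SD, n = 5) in the MWCNT mice. The log2 difference was -0.26 (SE 0.27, 95% interval -0.84 to 0.32), or 0.834-fold with an interval of 0.557 to 1.25. The limma adjusted p was 0.81 and the exact permutation p was 0.365 (2-sided).

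Of the 28010 probes tested, limma called 0 (0%) between MWCNT and control at an adjusted p under 0.05. At an unadjusted p under 0.05 the count was 815 (2.91%). Exposed and control arrays did not overlap for 93 of 27845 probes with a value on every array (0.334%), and neither folding gene was among them.

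Within the first scan run, 3 MWCNT mice were compared with the 5 controls. Hsp90ab1 averaged 0.15 ± 0.079 (SD, n = 3) against 0.19 ± 0.15 (SD, n = 5), a log2 difference of -0.038 (SE 0.15) or 0.974-fold, with an interval of 0.775 to 1.22. Ppia averaged 2.85 ± 0.37 (SD, n = 3) against 2.81 ± 0.38 (SD, n = 5), a difference of 0.046 (SE 0.25) or 1.03-fold, with an interval of 0.703 to 1.52. Both limma adjusted p-values rounded to 1.00, and the exact permutation p-values were 0.714 and 0.821, where 3 against 5 mice allow no p below 0.0179.

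**Figure D1:**
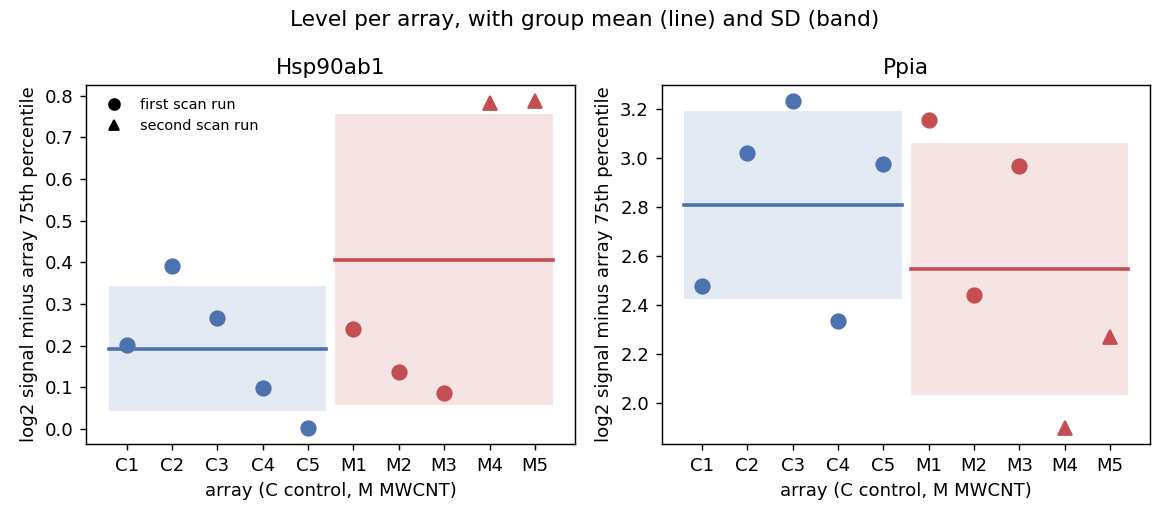
Relative level of Hsp90ab1 (left) and Ppia (right) on each of the 10 arrays, as log2 signal minus the array's 75th percentile. Circles are the first and triangles the second scan run, lines are group means and bands 1 SD. MWCNT mice 4 and 5 had 0.78 and 0.79 for Hsp90ab1, above the other 8 arrays, and 1.90 and 2.27 for Ppia, below them.

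The MWCNT group alone spanned both scan runs, and there the mean differences of the folding genes had opposite signs. Hsp90ab1 averaged 0.78 on the 2 arrays of the second run and 0.15 on the 3 of the first. That is a log2 difference of 0.63 (SE 0.19) or 1.55-fold, with an interval of 1.12 to 2.13. Ppia averaged 2.08 and 2.85, a difference of -0.77 (SE 0.28), which is 1.70-fold lower on the second run (0.587-fold, with an interval of 0.369 to 0.932). Neither passed the threshold across all probes, with limma adjusted p of 0.0528 for Hsp90ab1 and 0.0779 for Ppia. An exact permutation test of 2 against 3 arrays cannot go below 0.1, and it gave 0.1 for Hsp90ab1 and 0.2 for Ppia. With all 10 arrays in 1 fit with terms for exposure and scan run, the differences were the same and the limma adjusted p was 0.0235 for Hsp90ab1 and 0.0754 for Ppia, where 32.4% of probes were called, 13.7% as higher on the second run. These comparisons use the same 5 MWCNT arrays as the comparison with controls.

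Differences of this size between the runs were common on the array. Limma called 7558 of 28009 probes (27%) between the 2 runs, 3333 of them (11.9%) higher and 4225 lower on the second. This balance turned with the scaling: it was 3560 higher and 2181 lower with quantile normalization, 3341 and 1720 with loess, and 3476 and 2132 in the authors' deposited values. It was 3042 higher and 10787 lower with normexp background correction, and 8052 higher and 61 lower with no scaling. The median size of the difference was 0.61 log2 units over all tested probes. A difference at least as large as that of Hsp90ab1, in either direction, was seen in 48.3% of probes, and one at least as large as that of Ppia in 37.3%. Without MWCNT mouse 2 or without MWCNT mouse 4 the count of called probes was 0, and without mouse 1 or mouse 3 it was 889 or 967. Scan run, slide and any difference between the mice of the 2 runs cannot be told apart.

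Set against all 8 arrays of the first run, a comparison added after the values were seen, the 2 arrays of the second run stood outside for both genes. For Hsp90ab1 the first run ranged from 0.0029 to 0.39 with a median of 0.17, and both later arrays were above it, as they were for 19.1% of probes. The difference was 0.61 (SE 0.15, limma adjusted p = 0.00773), where 42.5% of probes were called. For Ppia the first run ranged from 2.34 to 3.23 with a median of 2.97, and both later arrays were below it, as for 23.4% of probes. The difference was -0.74 (SE 0.25, limma adjusted p = 0.0360). Each exact permutation p was 0.0222, the smallest that 45 assignments can give. In the authors' deposited values Ppia did overlap. MWCNT 5 was at 12.80 on their log2 scale, above control 4 at 12.61, MWCNT mouse 2 at 12.71 and control 1 at 12.79. Ppia on MWCNT 5 overlapped with quantile normalization too. With loess both later arrays overlapped, MWCNT 4 at 12.61 being above control 4 at 12.56. Hsp90ab1 stayed outside under each of these, so for Ppia the separation depended on the scaling.

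Intensities were also compared before any scaling between arrays. The mean spot intensity of Hsp90ab1 was 1146 to 1548 on the 8 arrays of the first run and 3064 and 3122 on the second. Ppia gave 5518 to 11242 on the first run, and 6646 and 8718 on the second. The unscaled Hsp90ab1 signal was thus higher on the second run than on any array of the first, whereas the unscaled Ppia signal lay inside its earlier range. The log2 75th percentile of the arrays was 10.08 to 10.39 in the first run and 10.80 and 10.82 in the second. With no scaling, the run difference was 1.22 (limma adjusted p = 0.00787) for Hsp90ab1 and -0.18 (adjusted p = 0.678) for Ppia. Limma called 8113 of 28009 probes in that fit, 8052 of them higher on the second run, so a higher unscaled level there was common on the array. Over the 14 alternatives tried, other than leaving out an array, Hsp90ab1 was higher on the second run by 0.50 to 1.22, past the threshold in 10. In those fits the share of probes called ran from 5061 of 28009 with loess to 13829 of 28009 with normexp. Ppia was lower by 0.18 to 0.77, past the threshold in 2, with normexp and against all 8 first-run arrays. The latter, which called 11900 of 28009 probes, is counted among the 14 for both genes. It mixes exposure with scan run, since 5 of the 8 arrays are controls.

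**Figure D2:**
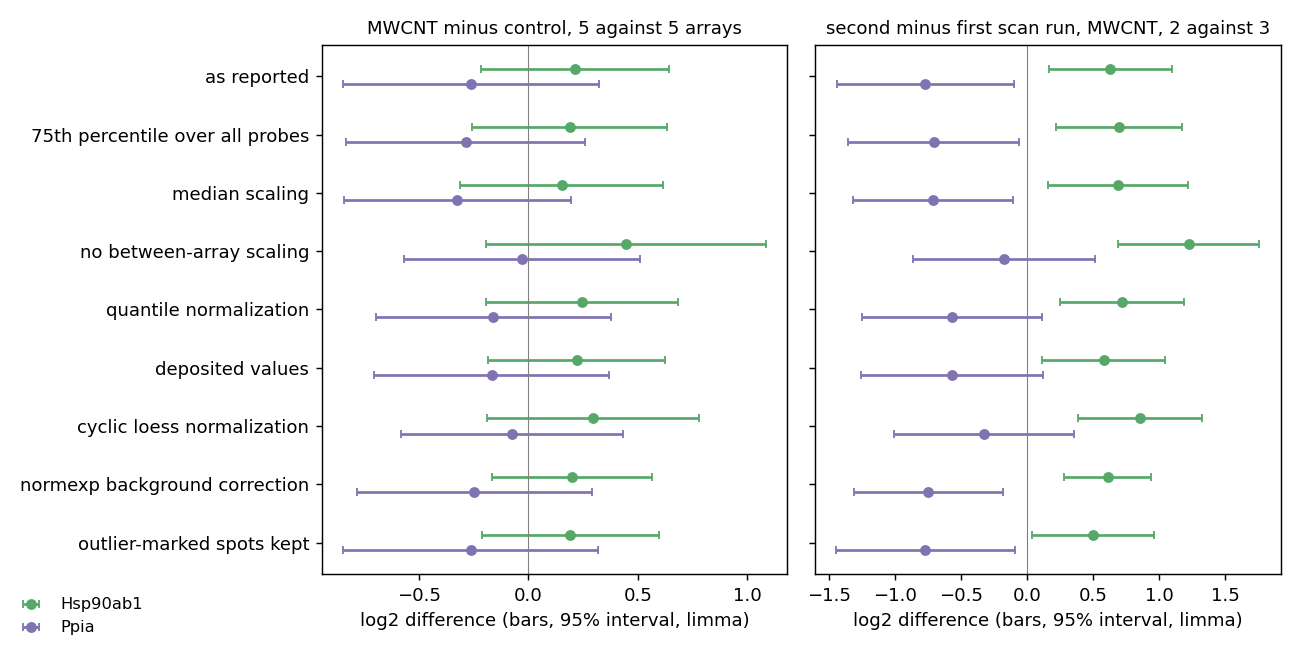
Log2 differences of Hsp90ab1 (green) and Ppia (purple) with 95% intervals from limma, under 9 ways of scaling or averaging the values. Left, MWCNT minus control, where every interval includes 0. Right, second minus first scan run within MWCNT, where Hsp90ab1 lies between 0.50 and 1.22 and Ppia between -0.77 and -0.18. On the right every Hsp90ab1 interval excludes 0. The Ppia interval there includes 0 with quantile and loess normalization, in the deposited values and with no scaling.

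The ratio of the folding genes within an array is free of any scaling by a constant, so it was followed as a value of its own. The log2 ratio of Hsp90ab1 to Ppia, relative to the mean of the controls, was 0.34, -0.012, -0.35, 0.38 and -0.36 in controls 1 to 5. It was -0.30, 0.31, -0.27, 1.50 and 1.13 in MWCNT mice 1 to 5. MWCNT mice 1 to 3 fell within the control range, and MWCNT mice 4 and 5 were at 2.82 and 2.19 times the control mean. Normalization other than by a constant gave these 2 mice smaller log2 ratios. They were 1.33 and 0.82 in the deposited values, and 1.27 and 0.88 with loess.

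The mean log2 ratio after MWCNT was 0.48 ± 0.81 (SD, n = 5) against 0.36 as the SD of the controls, and the exact permutation p was 0.270. Within the first run the difference was -0.084 (exact permutation p = 0.75). Within the MWCNT group the second run exceeded the first by 1.40 log2 units, or 2.64-fold (exact permutation p = 0.1, the smallest possible). Against all 8 arrays of the first run it was 1.35, or 2.54-fold (exact permutation p = 0.0222, again the smallest possible). The difference within the MWCNT group was 1.14 in the deposited values and 1.18 with loess. A ratio shows that the genes differed unequally between the runs and does not say which of them moved. Controls alone ran from 0.781 to 1.30 times their mean, so the ratio of these reference genes varied between vehicle mice of 1 run.

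**Figure D3:**
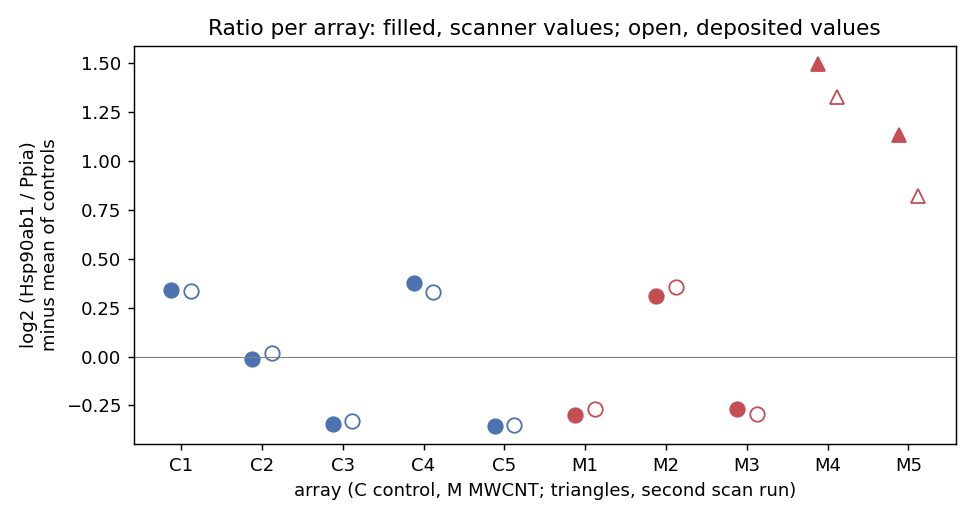
Log2 ratio of Hsp90ab1 to Ppia on each array, relative to the mean of the 5 controls; filled symbols are scanner values, open symbols the authors' deposited values, and triangles the second scan run. The 8 arrays of the first run lie between -0.36 and 0.38 in the scanner values, and MWCNT mice 4 and 5 at 1.50 and 1.13.

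The 20 spots of each probe gave the error between spots within an array, which leaves out labelling and hybridisation. Over the spots left in, the standard error of the mean was 0.0050 to 0.021 log2 units for Hsp90ab1 and 0.0060 to 0.013 for Ppia. The SD between the 8 mice of the first run was 0.12 for Hsp90ab1 and 0.35 for Ppia, and it includes differences between their arrays.

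The spots of Hsp90ab1 were less even than those of Ppia. Agilent's software marked 17 of the 200 Hsp90ab1 spots and 4 of the 200 Ppia spots as outliers. In both genes every marked spot was below the median of its 20 spots. Among the other 13 reference genes the number ran from 3 to 25, with a median of 9, so Hsp90ab1 ranked 4 of the 15 and Ppia 14. By array, Hsp90ab1 had 5 marked spots on MWCNT 5, 4 on control 5, 3 on control 4, 2 on MWCNT 4, 1 each on controls 2 and 3 and on MWCNT 1, and none on the remaining 3. Marked spots were left out of the values above.

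The lowest spots were on 3 arrays. With all spots in, the SD of the 20 log2 intensities of Hsp90ab1 was 0.245 on control 4, 0.268 on MWCNT 4 and 0.329 on MWCNT 5, and 0.059 to 0.093 on the other 7 arrays. For Ppia it was 0.027 to 0.058 on all 10. On MWCNT 5 the 20 Hsp90ab1 spots ran from 1733 to 3291 intensity units, while the Ppia spots kept to 8399.7 to 8994.

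**Figure D4:**
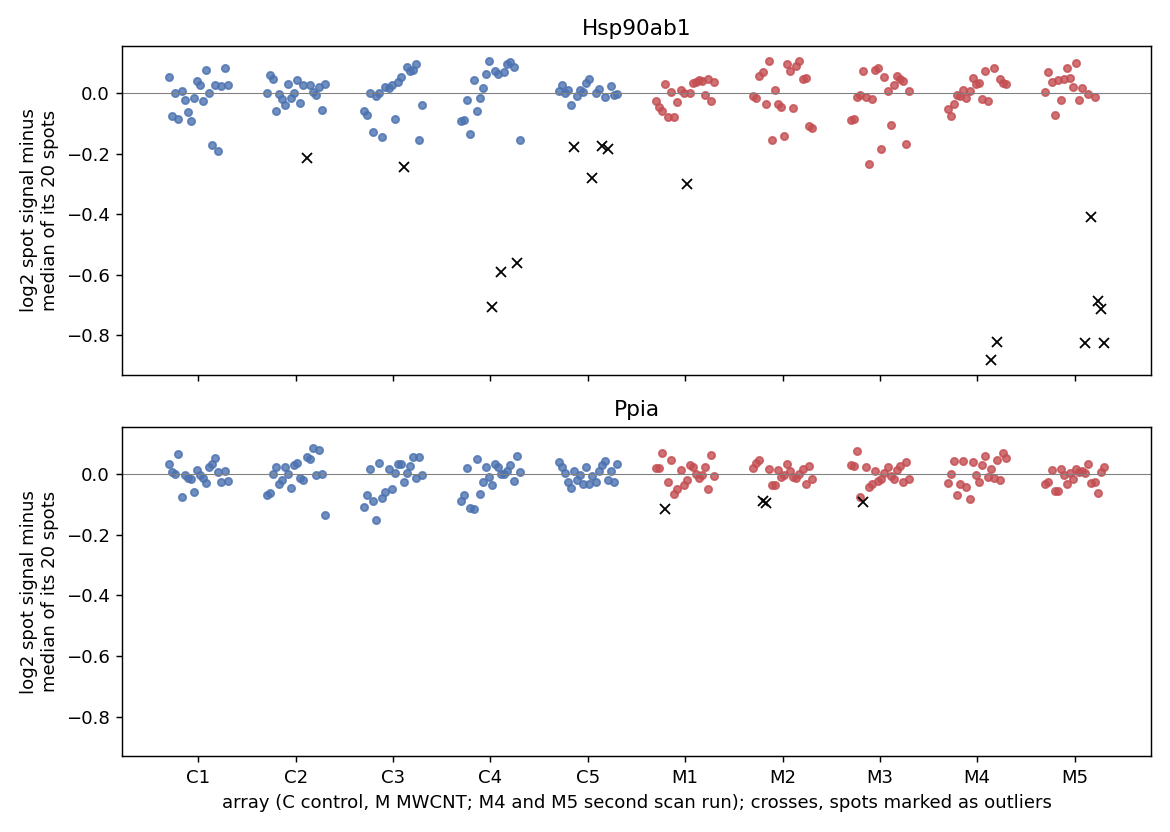
Log2 intensity of each spot of Hsp90ab1 (top) and Ppia (bottom) minus the median of the gene's 20 spots on that array; crosses are spots marked as outliers. Marked Hsp90ab1 spots reach -0.88 on MWCNT 4, -0.83 on MWCNT 5 and -0.71 on control 4, while the Ppia spots lie between -0.15 and 0.088.

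On both arrays of the second run the low Hsp90ab1 spots lay in the later rows of the grid, in different columns. On MWCNT 5 the rectangle drawn around them ran between rows 252 and 342 and columns 41 and 100 of the grid, at -0.83 to -0.41 log2 units from the median. That rectangle was set by the 5 marked Hsp90ab1 spots themselves, and it held no unmarked one. The 2 Ppia spots in it deviated by -0.027 and 0.0093. On MWCNT 4 the rectangle around the low pair ran between rows 271 and 298 and columns 124 and 134, at -0.88 and -0.82, with no Ppia spot in the rectangle. On control 4 the 3 low spots were at -0.71 to -0.56, and 4 Ppia spots in the rectangle that held them were between -0.036 and 0.011.

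In row 158 the probes were printed side by side, Ppia in column 12 and Hsp90ab1 in column 13. On control 4 the Hsp90ab1 spot there was at -0.71 while its Ppia neighbour was at -0.0080. On MWCNT 1 the same pair was at -0.30 and -0.034. The spot in row 252 and column 48 was marked on 4 arrays, the most of any position of the 2 genes. On control 4 and MWCNT 1 the low value of row 158 was thus in the Hsp90ab1 spot and not in the adjacent Ppia spot. That Hsp90ab1 spot was also below the median, but unmarked, on MWCNT 3 (-0.19), MWCNT 2 (-0.14) and control 3 (-0.084). Its Ppia neighbour there was at -0.021, -0.0098 and -0.048. On controls 1, 2 and 5 both spots were above their medians. On MWCNT 4 and MWCNT 5 the Hsp90ab1 spot of that pair was not low, at 0.032 and 0.098. The low spots of those arrays had no Ppia spot beside them in the row. The cause of the low spots was not tested.

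**Figure D5:**
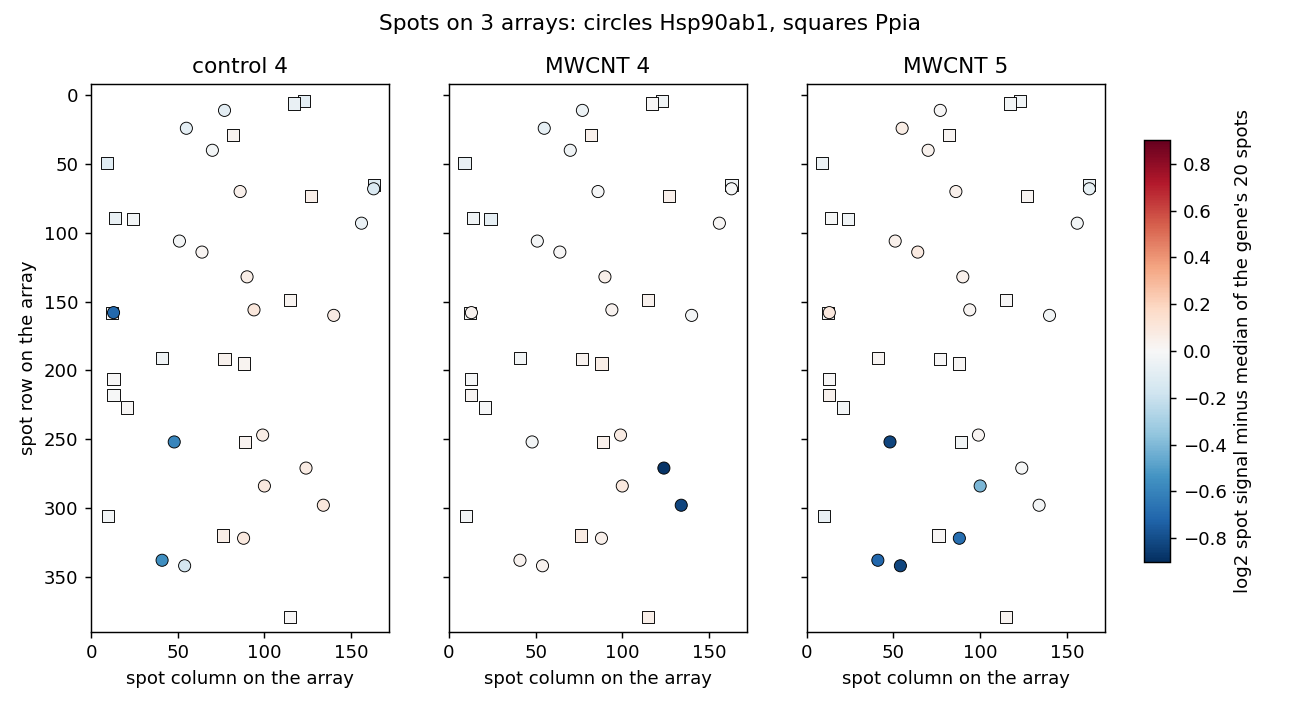
Position of the Hsp90ab1 spots (circles) and Ppia spots (squares) by row and column of the array on control 4, MWCNT 4 and MWCNT 5, coloured by log2 deviation from the median of the gene's 20 spots. Dark blue circles are the low Hsp90ab1 spots, in rows 252 to 342 on MWCNT 5 and rows 271 to 298 on MWCNT 4.

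Whether such spots were kept changed the size of the Hsp90ab1 difference between the runs. Keeping them moved Hsp90ab1 by -0.18 log2 units on MWCNT 5, -0.086 on MWCNT 4 and -0.094 on control 4. The second run then exceeded the first by 0.50 (limma adjusted p = 0.0923), and Ppia stayed at -0.77. The authors' deposited log2 values of both genes on all 10 arrays equalled quantile-normalized means over all 20 spots, marked spots included. The largest deviation was 0.00038 log2 units for Hsp90ab1 and 0.00017 for Ppia. With marked spots left out it reached 0.186 for Hsp90ab1 and 0.012 for Ppia. The run difference of Hsp90ab1 was 0.58 in the deposited values (limma adjusted p = 0.0743), 0.58 in quantile-normalized means with every spot kept, and 0.72 (limma adjusted p = 0.0464) without the marked spots.

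The other reference genes gave the setting for these patterns. On the second run Ppia was lower together with most of them: 12 of the 14 measurable reference genes were lower there within the MWCNT group. Hsp90ab1 and Gk (glycerol kinase), at 0.017, were the exceptions. The other 12 genes ranged from -1.21 to 0.017 with a median of -0.73, and 5 of the 14, neither folding gene among them, passed the threshold, against 27% of all tested probes. That Hsp90ab1 was higher among mostly lower reference genes is a description of 14 chosen genes at this scaling, not a test. The log2 percentile subtracted was 10.80 and 10.82 on the second run and 10.08 to 10.39 on the first. How many genes were lower depends on that subtraction. With no scaling Ppia itself was at -0.18 in place of -0.77, and the count was not taken under the other scalings.

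By Pearson correlation over the 10 arrays, the reference genes most like Ppia were Tuba1b (alpha-tubulin, r = 0.97), Hprt (a purine salvage enzyme, r = 0.96) and Rpl13a (a ribosomal protein, r = 0.94). Over the 8 arrays of the first run these were 0.95, 0.92 and 0.95. The likeness of Ppia to them therefore did not rest on the second run. The least like over 10 arrays was Hsp90ab1, at -0.55, which was 0.35 within the first run. There the lowest was Nono (an RNA-binding protein of paraspeckles), at -0.80. Array scaling is shared by all of these values.

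Hsp90ab1 had no close match over the 10 arrays, where its highest correlations were with Tbp (the TATA-binding protein, r = 0.073), G6pd2 (a copy of the glucose-6-phosphate dehydrogenase gene, r = 0.060) and Gk (r = -0.17). Its lowest was with Actb (cytoplasmic beta-actin), at -0.80. Within the first run the values were 0.68, 0.89 and -0.45, and that with Actb was 0.50. Of these 4 values, that with Actb changed sign between the 10 arrays and the first run. In the authors' deposited values the 10-array correlations were 0.093 with Tbp, 0.43 with G6pd2, -0.29 with Gk and -0.69 with Actb. The value with G6pd2 thus depended on the processing. Between Hsp90ab1 and Ppia themselves, the first run gave Pearson r = 0.35 (exact permutation p = 0.397, n = 8) and Spearman rho = 0.55 (exact permutation p = 0.171, n = 8). Without controls 2 and 5, whose Hsp90ab1 levels were farthest from the median, r was 0.59 (n = 6).

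Lists of 38 folding genes (the HSP90 and HSP70 systems, cyclophilins and FK506-binding proteins) and of 25 blood cell markers were searched for in the files. Of the folding genes, 2 had a probe that the files name, Hsp90ab1 and Ppia themselves. Of the blood markers 1 did: Tfrc, the transferrin receptor of immature red cells. Its relative level was -1.31 to -0.79 in controls, and -1.03, -0.44, -0.33, -0.55 and -2.09 in MWCNT mice 1 to 5. MWCNT mice 4 and 5 were alike in Hsp90ab1 and far apart in Tfrc, where mouse 5 was the lowest of the 10. The part of cell composition in the folding gene values was not tested.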

How the data were processed

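Whole blood RNA of 10 mice, each a separate animal by the labels' replicate numbers, was measured on 10 arrays. Per the labels' protocols, ribosomal RNA was removed and the rest amplified by random priming along the transcripts and labelled with Cy3. Per the file headers, the authors' scanner files hold linear intensity per spot from Agilent Feature Extraction 11.0.1.1, background-subtracted and spatially detrended. Flags of 0 or 1 mark outlying, saturated and detected (well above background) spots. On controls 1, 2 and 5 alone the detrended means of the folding genes differed from the background-subtracted ones. The shift was -0.016 to -0.0071 log2 units for Hsp90ab1 and 0.0069 to 0.016 for Ppia. The deposited table holds log2 values; how they were normalized is not stated here by label or header.

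Spots marked as outliers were left out, log2 signals averaged per probe, and each array's 75th percentile was subtracted, taken over the 23404 probes detected on every array. The 28010 probes detected on 5 or more of the 10 arrays were tested with limma 3.58.1 in R 4.3.3 (lmFit, eBayes, 2-sided, Benjamini-Hochberg over all tested probes, threshold 0.05). Single values were compared by exact permutation of arrays. The number of arrays limits the precision. A fit between scan runs used 28009 probes, 1 having no estimate there. The normexp alternative, with an offset of 50, used the median spot signal in place of the planned mean.

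Symbols came from matching accessions to a RefSeq table of GRCm38.p6, which was used for names only; all 15 matched. Named genes were the 2 folding genes and, for each, the 3 reference genes with the highest and the 1 with the lowest correlation over the 10 arrays. The genes and lists were chosen with earlier results of these data known. Alternatives were other scalings, background correction, filters, variance models, the deposited values, marked spots kept, scan run or replicate number as a block, and each array left out in turn.

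Same-numbered mice did not consistently deviate together, with correlations of -0.45, 0.079, 0.29, 0.33 and -0.20 for numbers 1 to 5.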

Additional observations from a re-analysis of the deposited data

Results flagged for a closer look

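The spot-to-spot SD of Hsp90ab1 stood out on 1 control array. Control 4 had an SD of 0.245 log2 units over its 20 spots, and the gap to the nearest control was 0.821 of the whole range of the 5 controls, above Dixon's critical value of 0.71. Of 14 such tests 1 passed, where chance would pass 0.7 on average. The level of Hsp90ab1 on that array, 0.099 without its 3 marked spots, was inside the range of the other controls.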

How the results depend on the processing

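In the comparison of MWCNT with control, neither folding gene nor their ratio passed the threshold under any alternative run. The sign turned under a few. Hsp90ab1, 0.21 as reported, was -0.038 with scan run as a block, -0.038 in the first run alone and -0.12 (limma adjusted p = 0.743) with array weights, which called 2 probes. Ppia was 0.046, and the log2 ratio -0.084, both with the block and in the first run alone. In the block, only first-run arrays inform the exposure estimate. Leaving out each array in turn gave 0.12 to 0.29 for Hsp90ab1, -0.41 to -0.10 for Ppia and 0.22 to 0.67 for the ratio, with 0 probes called. The median of the tested probes, averaged over the arrays of a group, was compared between the groups. It differed by -0.046 to 0.018 under the scalings between arrays and the other choices of signal or spots.

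Between scan runs within MWCNT, Hsp90ab1 passed the threshold at 0.69 with the 75th percentile over all probes, 0.72 with quantile and 0.85 with loess normalization. It also passed at 0.61 with normexp and 1.22 with no scaling. Hsp90ab1 stayed at 0.63 and passed with no filter, with a filter on all 10 arrays, with a trended robust variance and with all 10 arrays in 1 fit (limma adjusted p 0.0235 to 0.0473). Against all 8 first-run arrays it passed at 0.61. That comparison is not within MWCNT: 5 of the 8 arrays are controls and no exposure term was fitted, so it mixes exposure with scan run. Ppia passed at -0.75 with normexp and at -0.74 against all 8 arrays, where the ratio was 1.35 (exact permutation p = 0.0222). Called probes numbered 7558 of 28009 as reported, 13829 of 28009 with normexp, 26861 of 60914 with no filter and 11900 of 28009 against all 8 arrays. With each MWCNT array left out, Hsp90ab1 ranged from 0.60 to 0.67, Ppia from -0.98 to -0.59, the ratio from 1.22 to 1.60 and called probes from 0 to 8586. The cause of these changes was not tested. Keeping marked spots, comparing with all 8 arrays and omitting the scaling were added after the data were seen.

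The replicate numbers did not pair the mice: 2 of 5 MWCNT arrays correlated best with the control of their own number. With replicate number as a block, Hsp90ab1 was 0.21 (limma adjusted p = 0.805), Ppia -0.26 (adjusted p = 0.795), the ratio 0.48 (exact permutation p = 0.3125), and 0 probes were called.

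Every spot of both genes was well above background. The second run held no control.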

Other observations

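The match between the deposited values and quantile-normalized means with marked spots kept was close for both folding genes and looser for the table as a whole. The median size of the difference per array was 0.00022 to 0.00069 log2 units with marked spots kept and 0.0023 to 0.0090 with them left out. With marked spots kept, 60.5% to 64.5% of the probes on an array were within 0.01 log2 units of the deposited value. On MWCNT 4, which had 207 marked spots against 72 to 117 on the other arrays, that share was 54.0% with marked spots left out and 63.8% with them kept.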
